A study of Capra hircus with 12 samples.

Results

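MicroRNAs (miRNAs) were compared between telogen and catagen in secondary hair follicles (SHFs), the small follicles that grow cashmere, of Liaoning cashmere goats aged 1.5 years. All 376 miRNAs in the deposited tables were considered, 339 with goat names and 37 listed by a number. Of these, 287 had more than 5 CPM (counts scaled to a fixed library total) in at least 2 of the 8 libraries and were tested, and 89 did not. Of the 287, 258 passed in each phase, 22 only through telogen and 7 only through catagen. Telogen was represented by February and March and catagen by November and December, with 1 female and 1 male library in each month, so that each phase had 4 of the 12 libraries of the series. No agent or genetic change was applied to any group, and age and tissue were shared by all. Per time point the study used 3 goats of each sex, and how these became 1 library per sex is not given in the sources used here. Month is nested in phase, so differences between phases cannot be told apart from other differences between those months. The female and male library of a month came from different animals, so p-values measure the spread between such libraries, sex included.

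Hair follicles pass through growth (anagen), regression (catagen) and rest (telogen), and in cashmere goats the SHFs do so in step with the year. A miRNA is cut as a short duplex from a hairpin precursor, and either strand, called the 5p or the 3p arm, can be loaded into the silencing complex, where it pairs with target messenger RNAs mostly through its seed and lowers their translation or stability. Many miRNAs are made from clusters that share a primary transcript. In skin, miR-203 and the miR-200 family are known from the epithelium and miR-199 and miR-214 from the mesenchyme.

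The 8 libraries held 3455772 to 5788032 counts on miRNAs, so the floor of 3 counts lay between 0.518 and 0.868 TPM. No molecular identifiers are described, and this floor covers counting error only. None of the 89 miRNAs left untested exceeded 13.5 TPM in any of the 8 libraries. Across the tested miRNAs, log2 levels of libraries of the same month correlated with r between 0.975 and 0.994 and libraries of different phases with r between 0.968 and 0.988, as a description over miRNAs that share libraries. Within telogen the female libraries (0.994) and the male libraries (0.992) were closer to each other than the female and male library of either month (0.989 in February and 0.975 in March). Bulk small RNA cannot tell fewer cells of a type from less RNA per cell.

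The share of the counts taken by a few abundant miRNAs differed between the phases. The 10 most abundant miRNAs of each library took 73.0% to 75.0% of the counts in catagen and 68.6% to 72.5% in telogen. miR-21-5p, a widely expressed miRNA known from growth and wound repair, took 7.51% of the counts in telogen and 3.92% in catagen, a gain of 3.59 percentage points. In the opposite direction, miR-27b-3p took 2.64 points less, miR-26a-5p 1.51 points less, miR-143-3p 1.28 points less and let-7f-5p 1.21 points less in telogen. TMM, which sets library scales from the bulk of the miRNAs, gave factors of 0.861 to 0.984 to the catagen libraries and 1.02 to 1.24 to the telogen libraries, with no overlap.

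With TMM scaling, 26 of the 287 tested miRNAs (9.06%) differed between phases at a false discovery rate (FDR) under 0.05 and at least 2-fold in edgeR's quasi-likelihood test. Of these DE miRNAs, 15 were higher in telogen (5.23%) and 11 were lower (3.83%). On the log2 scale the median over all tested miRNAs was near 0 (-0.000315). Without the minimum fold, 93 miRNAs (32.4%) passed, 40 higher and 53 lower. Scaling by library totals, which is what the deposited TPM values carry, added 0.27 to 0.38 to every log2 fold change (median 0.31) and moved the median to 0.32. It gave 44 DE miRNAs (15.3%), 39 higher (13.6%) and 5 lower (1.74%) in telogen, with 94 past the FDR alone (32.8%). The 15 higher calls of TMM were all kept under library totals, as were 5 of the 11 lower calls, and 24 miRNAs were called higher under library totals alone. No miRNA was called in opposite directions, while 51 changed sign between the scalings. The share of calls that were higher was 57.7% with TMM and 88.6% with library totals. Single libraries also moved these counts, since without the female November library 9 rather than 15 were called higher, and without the female March library 6 rather than 11 were called lower. 4 of the 15 higher calls had passed the filter only through telogen and 2 of the 11 lower calls only through catagen, so that they could enter the test only by differing. The miRNAs below are given on the TMM scale unless stated.

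**Figure D1:**
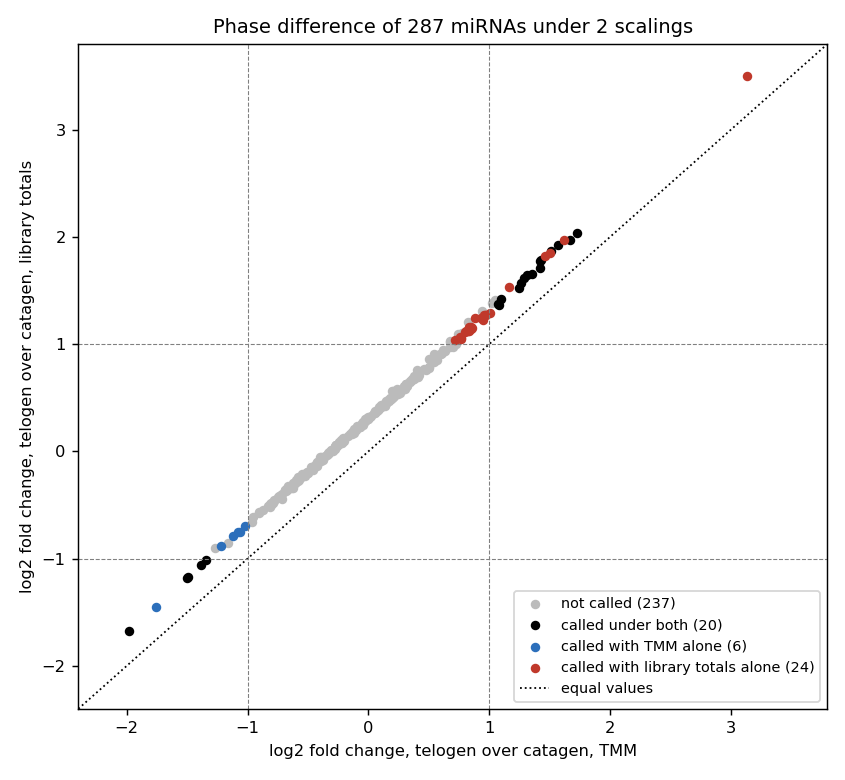
Log2 fold change of telogen over catagen for each of the 287 tested miRNAs, with TMM on the horizontal axis and library totals on the vertical axis, coloured by the scaling under which a miRNA was called. All points lie 0.27 to 0.38 above the dotted line of equal values, 20 miRNAs were called under both scalings, 6 with TMM alone and 24 with library totals alone.

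Among the 11 lower calls, the largest fall was that of miR-184, a miRNA known from squamous epithelium and the cornea. Its levels in the female February, male February, female March and male March libraries were 191, 107, 39.6 and 149.6 TMM CPM. In the female November, male November, female December and male December libraries they were 797, 397, 491 and 242 TMM CPM, and the same order of libraries is kept below. Every telogen library lay under every catagen library (log2 fold change -1.98 ± 0.47 (SE), FDR = 0.0124). miR-203, which restrains the division of epidermal cells, was far more abundant and fell less, with 39648 to 64627 TMM CPM in telogen and 65297 to 85799 in catagen. Its log2 fold change was -0.51 ± 0.16 (FDR = 0.04), below the 2-fold minimum, and -0.19 under library totals (FDR = 0.451).

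miR-27a-5p, the minor arm of a precursor in the miR-23a and miR-27a cluster, was at 134, 117, 78.95 and 140.0 TMM CPM in telogen and at 406, 334, 279.9 and 303 in catagen. The phases did not overlap (log2 fold change -1.49 ± 0.20 (SE), FDR = 0.00318), whereas the abundant arm miR-27a-3p was at 2489 to 2937 in telogen and 2259.5 to 2704 in catagen (FDR = 0.297). A like split was seen for miR-195, a member of the miR-15/16 family that restrains the cell cycle. miR-195-3p was at 13.2, 10.5, 14.6 and 16.4 TMM CPM in telogen and 34.3, 41.3, 28.7 and 34.9 in catagen (log2 fold change -1.34 ± 0.20 (SE), FDR = 0.00326). The log2 fold change of miR-195-5p was 0.86 with an FDR of 0.0912.

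miR-151-3p, hosted in the gene of focal adhesion kinase in mammals, was the most abundant DE miRNA, with 3024, 2268, 1696 and 1663 TMM CPM in telogen and 4851, 5611, 3114 and 4481 in catagen (log2 fold change -1.06 ± 0.23 (SE), FDR = 0.00913). Its highest telogen library, the female February one, lay just under its lowest catagen library, the female December one. Under library totals its log2 fold change was -0.76 and it was not called, and the call was also lost without the male November, the female March or the male March library. miR-335-3p, from the imprinted MEST gene, was at 51.7 to 149.9 TMM CPM in telogen and 199.9 to 225 in catagen. Its call (log2 fold change -1.02) held in 11 of 22 alternatives, and was lost with RLE, upper quartile and library total scaling, with DESeq2 and with either other filter. It was kept without 4 of the 8 libraries taken out in turn, and lost without either November or either female telogen library. miR-1468-5p (-1.08), miR-296-3p (-1.22) and miR-92a-5p (-1.38) also fell on the log2 scale, the last at only 1.52 to 2.73 TMM CPM in telogen, having passed the filter only through catagen.

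The other 3 lower calls were listed by a number. novel_704 was at 18.97, 21.9, 9.14 and 18.1 TMM CPM in telogen and 58.3, 48.2, 33.2 and 53.2 in catagen (log2 fold change -1.50 ± 0.28 (SE), FDR = 0.00642). novel_587 was at 48.9 to 115 in telogen and 140.4 to 191 in catagen (-1.12 on the log2 scale). novel_586 was scarce, at 0.620 to 2.14 in telogen and 1.50 to 6.37 in catagen, and it was the lower call whose phases overlapped. Its call was lost without 5 of the 8 libraries, all but the November ones and the male March one. Of the 11 lower calls, 10 had no overlap between phases, against 52 of all 287 tested miRNAs (18.1%). The calls were chosen by a phase difference in these libraries, which favours no overlap, so this is a description only. Library totals kept miR-184, novel_704, miR-27a-5p, miR-92a-5p and miR-195-3p.

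**Figure D2:**
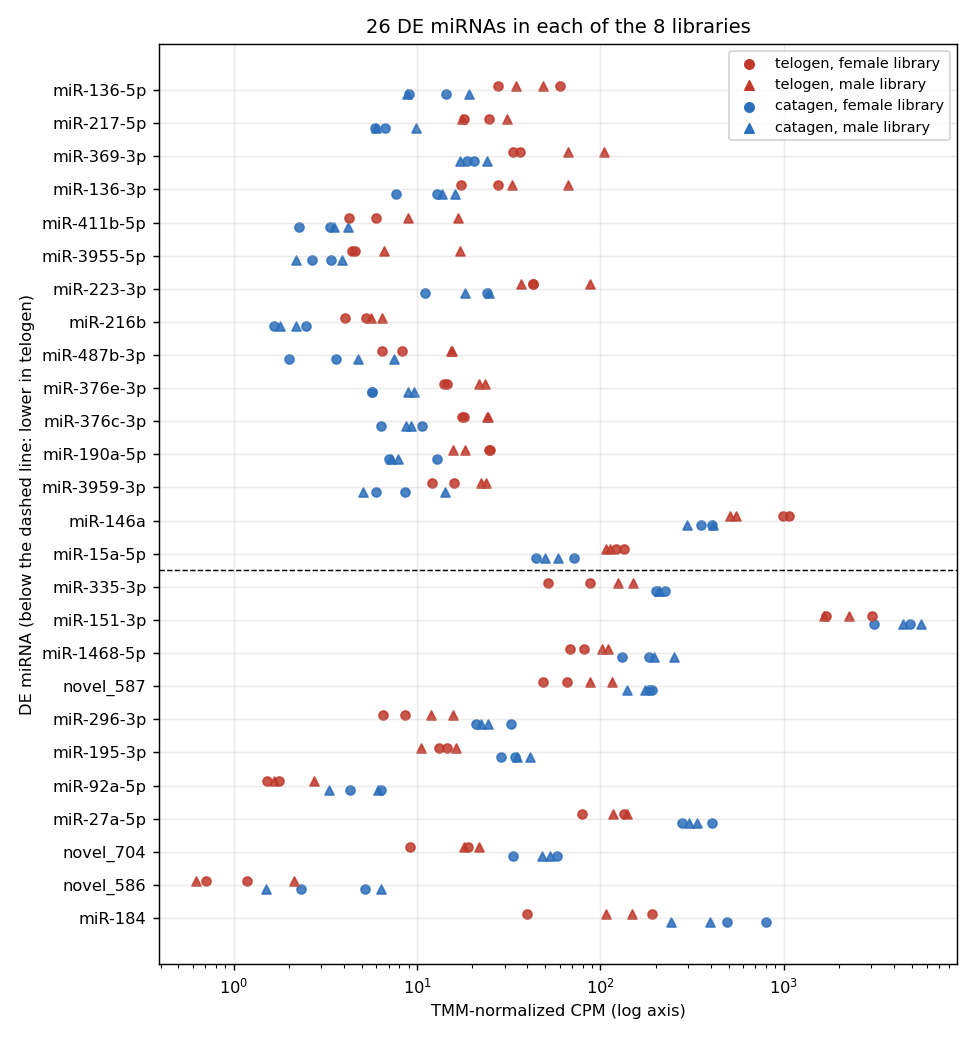
TMM-normalized CPM (log axis) of the 26 DE miRNAs in each telogen (red) and catagen (blue) library, with circles for female and triangles for male libraries. The 11 miRNAs below the dashed line were lower in telogen and the 15 above it were higher, and the phases overlapped for novel_586, miR-487b-3p and miR-3959-3p.

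Of the 15 higher calls, 9 came from the imprinted locus between DLK1 and DIO3, a long cluster of miRNAs expressed from the maternal chromosome and known from growth and stem cell quiescence. By neighbouring genes in RefSeq (assembly ARS1.2, in which 224 of the 227 precursor names of the tables were matched), 39 precursors with 49 listed miRNAs belonged to it, and 29 of these were tested. Of the 29, 25 passed the filter in each phase and 4 passed it only through telogen. With TMM 9 of the 29 were called higher and 0 lower, where 5.23% of all tested miRNAs were called higher. Of the 29, 28 had a positive log2 fold change (median 0.89), where 49.8% of all were positive. Among the 25 alone, 6 were called higher, 24 were positive and the median was 0.83. Under library totals 13 of the 29 were called higher and 0 lower, where 13.6% of all tested miRNAs were called higher. All 29 were positive, where 67.6% of all were and the median of all miRNAs was itself shifted. miRNAs outside the locus gave the other 6 higher calls.

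miR-136-5p had the largest fold change of the 15 higher calls. It was at 59.96, 34.5, 27.8 and 48.4 TMM CPM in telogen and 8.999, 19.2, 14.5 and 8.79 in catagen (log2 fold change 1.73 ± 0.33 (SE), FDR = 0.00642). Its partner arm miR-136-3p was at 17.4, 32.9, 27.8 and 66.7 in telogen and 7.67, 16.2, 12.9 and 13.6 in catagen (log2 fold change 1.52 ± 0.40 (SE), FDR = 0.019). Neither arm overlapped between phases, and the male March library was the highest for the 3p arm while the female February library was the highest for the 5p arm.

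miR-369-3p was at 33.2, 66.6, 36.4 and 104 TMM CPM in telogen and 18.7, 17.1, 20.6 and 24.2 in catagen (log2 fold change 1.57 ± 0.36 (SE), FDR = 0.0105). The male telogen libraries were the highest of the 8 and the female ones stood above catagen by less. miR-376c-3p was at 17.6, 24.4, 18.1 and 24.2 in telogen and 6.33, 8.68, 10.6 and 9.23 in catagen (log2 fold change 1.26 ± 0.22 (SE), FDR = 0.00567). miR-376e-3p had a log2 fold change of 1.29 ± 0.27, and its phases did not overlap. The remaining calls of the locus were lower in level, with log2 fold changes of 1.43 for miR-411b-5p, 1.42 for miR-3955-5p, 1.31 for miR-487b-3p and 1.09 for miR-3959-3p. These 4 calls were each lost when the male February, male March, female November, male November or female December library was left out. Of the 9 calls, 4 were kept without the female November library, 5 without each of the other 4 just named, 7 without the male December library and 9 without either female telogen library.

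The most abundant tested members, miR-379-5p and miR-127-3p, did not pass the test. miR-379-5p was at 306, 505, 218 and 868 TMM CPM in telogen and 359.6, 412, 354 and 519 in catagen (log2 fold change 0.21, FDR = 0.665). miR-127-3p was at 159, 234, 127 and 447 in telogen and 190.0, 254, 165 and 233 in catagen (0.20, FDR = 0.663). For both, the male March library stood highest and the female March library lowest, and without the male March library both log2 fold changes were below 0. miR-381 was the member with a negative log2 fold change (-0.25), which was 0.071 under library totals. Summed over the 49 listed members, the locus gave 979, 1615, 805 and 2749.8 TMM CPM in telogen and 908, 1169.8, 956 and 1309 in catagen, so that both female telogen libraries lay within or below the catagen range and both male telogen libraries above it.

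The sex of the library moved with these values. Over the 29 tested members, the median difference between phases in mean log2(TMM CPM + 1) was 0.371 in the female libraries (18 of 29 positive) and 1.20 in the male libraries (28 of 29 positive). Over all tested miRNAs the medians were -0.0945 and 0.0452. Without both male telogen libraries, 2 of the 9 calls, miR-136-5p and miR-376c-3p, were kept, and without both female telogen libraries all 9 were kept. No member of the locus was among the miRNAs whose phase difference was called different between sexes in the interaction test.

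**Figure D3:**
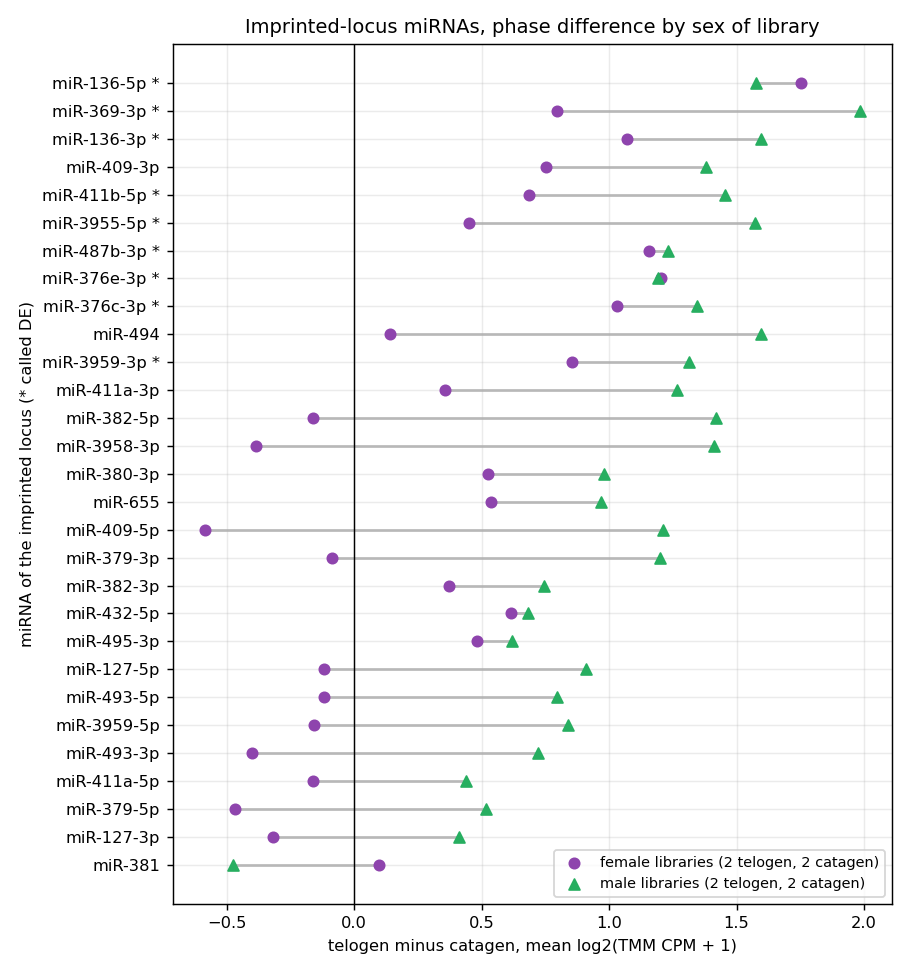
Difference between telogen and catagen in mean log2(TMM CPM + 1) for each of the 29 tested miRNAs of the imprinted locus, in female libraries (purple circles) and male libraries (green triangles), with DE miRNAs starred. The male value was positive for 28 miRNAs and the female value for 18, and the medians were 1.20 and 0.371.

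Outside the locus, miR-217-5p, known from the pancreas, was at 24.6, 31.01, 18.1 and 17.5 TMM CPM in telogen and 6.67, 5.99, 5.87 and 9.88 in catagen (log2 fold change 1.67 ± 0.27 (SE), FDR = 0.00431). miR-216b, which lies near it in mammals and passed the filter only through telogen, was at 4.04 to 6.43 in telogen and 1.67 to 2.49 in catagen (1.35, FDR = 0.00649). miR-217-5p, which passed in each phase, had no overlap and was kept without each library in turn. miR-15a-5p, a restrainer of the cell cycle, was at 121, 107, 135 and 113 in telogen and 44.7, 50.001, 72.1 and 58.4 in catagen (log2 fold change 1.07 ± 0.18 (SE), FDR = 0.00431), and it too did not overlap, though the call was lost without the female November library. miR-190a-5p had a log2 fold change of 1.24 ± 0.26, with 15.8 to 24.97 TMM CPM in telogen and 6.999 to 12.9 in catagen. Of the 15 higher calls, 13 had no overlap between phases, against 42 of all 287 miRNAs (14.6%). As with the lower calls, their choice on these libraries favours this.

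The last 2 higher calls are miRNAs known from leukocytes. miR-223-3p, a marker of myeloid cells, was at 42.9, 87.9, 42.7 and 37.05 TMM CPM in telogen and 10.999, 18.3, 24.2 and 24.6 in catagen (log2 fold change 1.42 ± 0.34 (SE), FDR = 0.0124). miR-146a, a brake on inflammatory signalling, was at 1065, 547, 988 and 509 in telogen and 354, 413, 408 and 298 in catagen (log2 fold change 1.08 ± 0.25 (SE), FDR = 0.0116). Its female telogen libraries were higher than its male ones, and all 4 lay above catagen. The call was lost without either female telogen library. The members of the leukocyte list differed in direction. Of its 7 miRNAs, all tested, 2 were called higher (5.23% of all tested miRNAs) and 0 lower, 3 of 7 had a positive log2 fold change (49.8% of all), and their summed level was 4538 to 10764 TMM CPM in telogen and 10259.8 to 16121 in catagen, most of it miR-146b-5p (log2 fold change -0.67, FDR = 0.149). miR-223-5p, the other arm of miR-223, had 0.95 (FDR = 0.0336). miR-155-5p, of activated lymphocytes, was at -0.34 on the log2 scale (FDR = 0.141), and miR-150, of mature lymphocytes, at -0.031 (FDR = 0.939). The part of leukocytes in these results was not tested.

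Marker lists of other cells and tissues gave further values. The erythroid miRNAs miR-451-5p and miR-144-5p summed to 27.6, 47.96, 24.97 and 93.01 TMM CPM in telogen and 7.67, 6.29, 20.8 and 29.9 in catagen. Neither was called with TMM (FDR = 0.061 and 0.0744), and both were called under library totals. The highest of the 8 sums was that of the male March library, which was also the highest for miR-379-5p, miR-127-3p and the summed imprinted locus. For striated muscle, 0 of 5 tested miRNAs were called, with miR-1 at 1312 to 2859.6 in telogen and 2559 to 3809.9 in catagen. For endothelium 0 of 2 were called and for the nervous system 0 of 2. These counts of 0 hold for both scalings. The part of blood or muscle in the results was not tested.

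Markers of epithelium and mesenchyme were present in every library. The study describes the miR-200 family as preferentially expressed in the epidermis, so its presence does not mark the follicle alone. The part of epidermis in these values was not tested. The 5 miRNAs of the epithelial miR-200 family summed to 12228 to 13308 TMM CPM in telogen and 10667 to 12210.1 in catagen, with 0 called. miR-141 came closest, at 414, 280.1, 372 and 242 in telogen and 136, 151, 225 and 164 in catagen (log2 fold change 0.95 ± 0.21 (SE), FDR = 0.0101), and it was called under library totals (1.23). Of 13 miRNAs listed here as mesenchymal, all tested, 0 were called with TMM. Among them 4 passed the FDR as higher and 3 as lower, where 13.9% and 18.5% of all tested miRNAs did so. Under library totals 8 passed as higher and 0 as lower, where 27.9% and 4.9% of all did. miR-214-3p, which acts on Wnt signalling in skin, was at 63.7, 57.9, 62.2 and 52.6 in telogen and 32.7, 35.6, 32.8 and 34.5 in catagen (log2 fold change 0.80 ± 0.14 (SE), FDR = 0.00567). miR-455-5p had a log2 fold change of 0.97 and miR-199a-3p of 0.59. Among those that fell were miR-145-5p (-0.80, FDR = 0.0156) and miR-143-3p (-0.50, FDR = 0.0337), which share a cluster known from smooth muscle. By in situ hybridization the study located miR-143-3p in the hair matrix. Under library totals miR-214-3p (1.11) and miR-455-5p (1.27) were called higher, and the log2 fold change of miR-143-3p shrank to -0.20.

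The most abundant miRNAs changed by less than 2-fold. miR-27b-3p was at 60366, 71730.1, 64563 and 75419 TMM CPM in telogen and 110139.9, 119185, 112829.9 and 115028 in catagen, which do not overlap (log2 fold change -0.75 ± 0.10 (SE), FDR = 0.00318). miR-21-5p was at 65794, 54009.8, 85268 and 63973 in telogen and 42493, 46126, 43664 and 42164 in catagen (log2 fold change 0.63 ± 0.14 (SE), FDR = 0.01). let-7f-5p, of the let-7 family that promotes differentiation, fell by a log2 value of 0.61 (FDR = 0.00913), and let-7g-5p had -0.39 (FDR = 0.0216). Under library totals neither passed, with -0.29 (FDR = 0.0889) and -0.076 (FDR = 0.547). miR-26a-5p, the most abundant of all, was at 187958, 148794, 173861 and 108919 in telogen and 211854, 228204, 171203 and 220652 in catagen, overlapping, with a log2 fold change of -0.43 (FDR = 0.087). miR-148a-3p overlapped too (-0.39, FDR = 0.271). Members of families with near-identical sequences, such as let-7, could share reads, and how the counting treated these is not given in the sources used here.

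Of 16 miRNAs that the study names, all tested, 1 was called higher (miR-146a) and 1 lower (miR-151-3p) with TMM, where 5.23% and 3.83% of all tested miRNAs were. The list was chosen on these libraries. In all, 3 passed the FDR as higher and 7 as lower, where 13.9% and 18.5% of all tested miRNAs did so. Under library totals 3 passed as higher and 3 as lower, where 27.9% and 4.9% of all did. miR-9-5p (-0.079, FDR = 0.815) and miR-29b-3p (0.32, FDR = 0.418), which the study lists as specific to telogen, did not pass in either scaling. The study clustered miRNAs over the whole hair cycle, May and September included. A contrast of telogen with catagen alone is narrower and does not test that grouping. miR-30e-5p was higher in telogen by a log2 value of 0.69 (FDR = 0.0344). miR-423-5p was at 275 to 390.0 TMM CPM in telogen and 474 to 761 in catagen (log2 fold change -0.91 ± 0.18 (SE), FDR = 0.00699), and miR-378-3p, of energy metabolism, at 2116 to 2322 and 3366 to 4534 (log2 fold change -0.78 ± 0.12 (SE), FDR = 0.00326). Neither overlapped between phases.

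Of the 24 miRNAs called under library totals alone, all were higher in telogen. miR-29a-3p, a repressor of collagens, was the most abundant, at 3329, 2413, 4321 and 1927 TMM CPM in telogen and 1429.6, 1723, 1884 and 1686 in catagen. Its log2 fold change was 0.83 with TMM (FDR = 0.0216) and 1.13 with library totals. miR-106b-5p, of a cluster linked to proliferation, had 0.85 (FDR = 0.00642) and 1.14. From the miR-15/16 family, miR-424-5p (1.04), miR-497-5p (1.13) and miR-195-5p (1.15) were in this group under library totals, so that 4 of the 11 members of that family were called higher in that scaling, where 13.6% of all tested miRNAs were. Of the 4, miR-15a-5p was called with TMM as well, and miR-195-3p of the same family was called lower in both scalings. The imprinted locus, with 29 of the 287 tested miRNAs, gave 4 of the 24, miR-380-3p, miR-409-3p, miR-494 and miR-655. Among the 24, miR-122, miR-195-5p, miR-20b, miR-362-3p, miR-363-3p, miR-409-3p and miR-96 had passed the filter only through telogen. These could enter the test only by differing, so that their direction was in part set by the filter.

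The ratio of the arms of a precursor does not depend on library scaling. Of 77 precursors with both arms tested, 33 (42.9%) had a log2 ratio of 5p to 3p counts (1 added to each) that differed between phases at an FDR under 0.05 in limma. The ratio was higher in telogen for 20 and lower for 13. For 11 of the 33 the shift was toward the more abundant arm and for 22 toward the less abundant arm, a split that was not counted over all 77. Without the female March library 21 were called. Of the 33, 28 had both arms past the filter in each phase, among 64 of the 77. In the other 5 (miR-195, miR-7, miR-409, miR-92a and miR-125a) 1 arm had passed through 1 phase only, so that its entry into the test depended on the phase difference.

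The largest difference toward 5p was in miR-195, whose 5p arm had passed the filter only through telogen. Its log2 ratio was -0.98, -2, -1.30 and -1.65 in the telogen libraries and -3.89, -4.12, -2.75 and -3.62 in the catagen libraries (difference 2.11 ± 0.30, FDR = 9.07e-05). miR-106b had ratios of 2.30, 2.01, 2.51 and 2.10 in telogen and 0.25, 0.25, 1.14 and 0.60 in catagen (difference 1.67 ± 0.24, FDR = 9.07e-05). In this precursor the arms moved in opposite directions with TMM, miR-106b-5p by 0.85 (FDR = 0.00642) and miR-106b-3p by -0.80 (FDR = 0.00567). miR-30e had ratios of 3.72, 3.71, 4.15 and 4.09 in telogen and 2.05, 1.63, 3.12 and 2.18 in catagen (difference 1.67 ± 0.28, FDR = 0.000296). None of the 3 overlapped between phases.

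Toward 3p, miR-27a led, with log2 ratios of -4.42, -4.41, -5.19 and -4.39 in telogen and -2.48, -3.01, -3.13 and -3.15 in catagen (difference -1.66 ± 0.25, FDR = 9.07e-05). let-7i, whose 3p arm had a mean of only 39 counts, followed with a difference of -1.56 ± 0.37 (FDR = 0.00337), where the female December library, at 11.44, lay within the telogen range. miR-532 differed by -1.11 ± 0.24 (FDR = 0.00217). In 22 of the 33 precursors the arms had log2 fold changes of opposite sign with TMM, in 27 under library totals, and in 4 both arms passed the FDR in opposite directions with TMM. The 33 were chosen in the same libraries by a difference between their arms, which favours opposite signs. These counts were not made over all 77 precursors, so no conclusion is drawn from them.

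**Figure D4:**
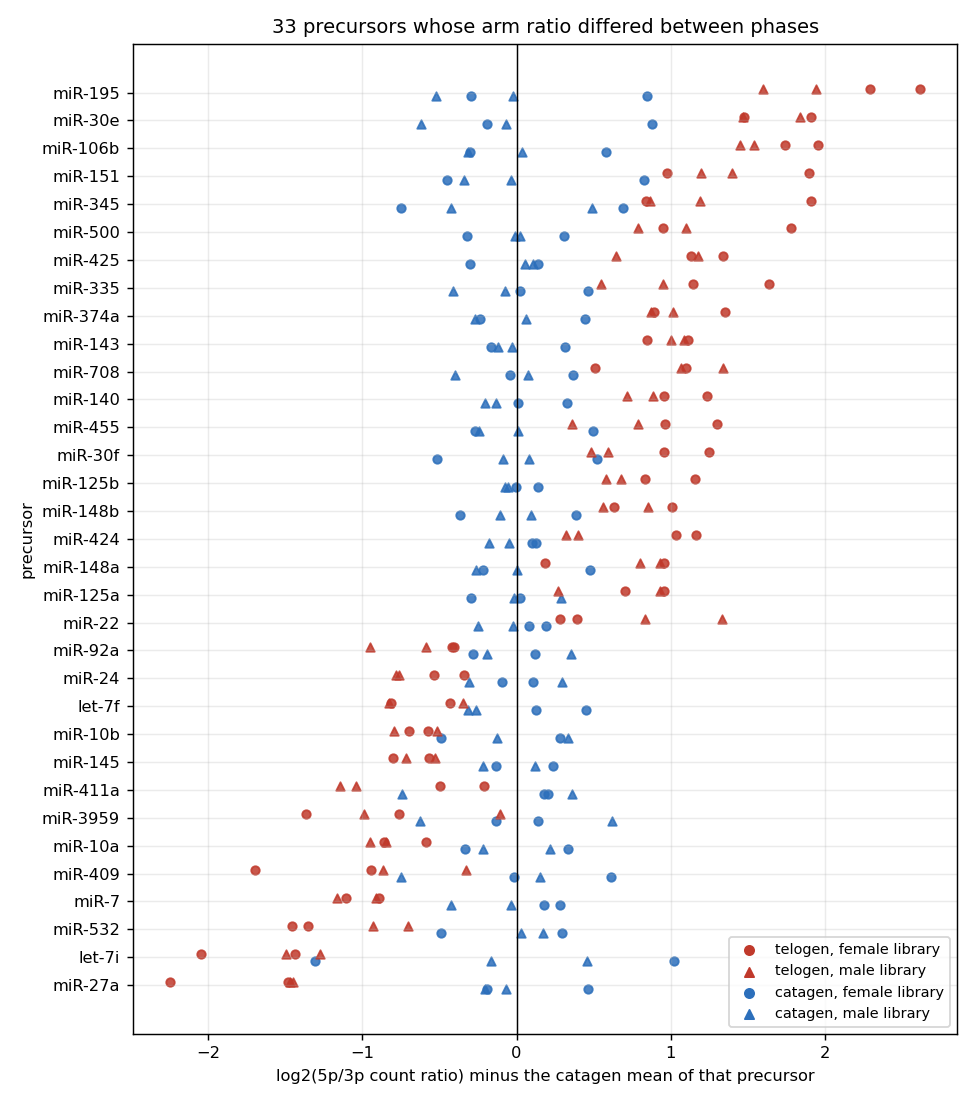
Log2 ratio of 5p to 3p counts, minus the catagen mean of the same precursor, for the 33 precursors called, in telogen (red) and catagen (blue) libraries, with circles for female and triangles for male libraries. The top 20 precursors shifted toward 5p in telogen and the lower 13 toward 3p, by up to 2.11 for miR-195 and -1.66 for miR-27a.

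Months of the same phase differed less than months of different phases. Between February and March 0 of 287 miRNAs were called (0%), with 8 at an unadjusted p under 0.05, and DESeq2 called 0 with 5 at that level. Between November and December 0 were called (0%), with 8 at that level in edgeR and, in DESeq2, 0 called and 6 at that level. These fits held the spread between sexes in their error. With sex within each phase in the model, an alternative added after the data were seen that leaves 2 degrees of freedom, 0 were called between February and March (26 at an unadjusted p under 0.05) and 2 between November and December (23 at that level). Those 2 were the erythroid miR-144-5p and miR-451-5p, higher in December by log2 values of 2.08 (FDR = 0.034) and 1.76 (FDR = 0.034). The median absolute log2 fold change was 0.184 and 0.191 in these contrasts, and between 0.365 and 0.531 in the 4 contrasts of a telogen with a catagen month. All 26 DE miRNAs had the same direction in all 4 of these contrasts, as had 218 of all 287 miRNAs (76.0%). All 26 also had the same direction in female and in male libraries, as had 210 of all 287 (73.2%), and the 26 were chosen by a call on the same libraries. These contrasts reuse the 8 libraries and are no independent support.

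Male and female libraries differed by a median absolute log2 value of 0.36 in telogen and 0.20 in catagen. In the contrast of male and female libraries within telogen, which was added after the data were seen, 31 miRNAs were higher (10.8%) and 4 lower (1.39%) in male libraries, while within catagen 0 were called (0%) in edgeR, with 19 at an unadjusted p under 0.05. Of the 31, 20 belonged to the imprinted locus, which held 29 of the 287 tested miRNAs. Examples were miR-409-5p (2.41 on the log2 scale, FDR = 0.0124), miR-3958-3p (2.22, FDR = 0.00362) and miR-493-5p (1.73, FDR = 0.00162). Members of a single locus are not independent, so the 20 are not 20 separate results. Among the 4 that were lower were miR-29b-3p (-1.04) and miR-101-3p (-1.25). Each sex has 2 libraries in a phase, and what else set the male telogen libraries apart cannot be told apart from sex.

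The test of the difference itself, the sex by phase interaction, called 4 of 287 miRNAs (1.39%), with 62 at an unadjusted p under 0.05. miR-122, the main miRNA of the liver, was at 2.20, 67.2, 1.41 and 70.4 TMM CPM in telogen and 2.9998, 3.29, 4.52 and 4.83 in catagen. Only the male telogen libraries were above 5 TMM CPM, and miR-122 passed the filter through them alone, so that its test could be entered only with such a difference. The interaction was 5.13 ± 0.52 on the log2 scale (FDR = 0.00037). In the other 4 libraries of the series miR-122 was between 0.484 and 1.95 TPM. Another liver and gut miRNA, miR-192-5p, was at 391, 327, 368 and 347 in telogen and 525, 597, 571 and 487 in catagen, with the male telogen libraries no higher than the rest. miR-194 was at 377, 289, 387 and 304 in telogen and 256, 269.8, 344 and 251 in catagen. miR-215-5p, of the same list, was at 3.05, 8.06, 3.34 and 6.43 in telogen and 1.9999, 2.99, 1.58 and 5.27 in catagen, and it was called higher in male telogen libraries (1.17, FDR = 0.0386). It passed the filter only through telogen, where the male libraries alone exceeded 5 TMM CPM, so that its entry into the test also depended on such a difference. The part of another tissue in these values was not tested. For the phases, the log2 fold change of miR-122 was 3.14 ± 1.11 and it was not called with TMM (FDR = 0.0549), and its call under library totals rested on the male telogen libraries, without which its log2 fold change was -1.07 with TMM.

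The other 3 had opposite orders of the sexes in the 2 phases. novel_120 was at 26.3, 81.03, 19.5 and 68.6 TMM CPM in telogen and 46.7, 23.4, 80.7 and 43.9 in catagen, so that male libraries were higher in telogen and lower in catagen (2.62 ± 0.48, FDR = 0.0172). miR-450-5p, from a cluster on the X chromosome in mammals, had the same order, with 33.7, 69.04, 30.2 and 76.6 in telogen and 83.99, 51.5, 62.1 and 48.1 in catagen (1.74 ± 0.31, FDR = 0.0171). miR-150 had the opposite order, with 147, 88.7, 183 and 94.96 in telogen and 83.99, 187, 95.6 and 158 in catagen (-1.79 ± 0.28, FDR = 0.00845).

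The May and September libraries entered none of the main fits above, only an alternative fit of all 12 libraries. They were compared with each other for the same miRNAs, with no call drawn. Of the 15 miRNAs called higher in telogen, 14 were higher in May (early anagen, after telogen) than in September (mid-anagen), with a median log2 difference of 1.25. The exception was miR-223-3p (-0.90). All 11 called lower in telogen were lower in May, with a median of -1.57, led by novel_704 (-3.13), miR-151-3p (-2.02) and miR-335-3p (-1.89). Of all 287 miRNAs, 141 (49.1%) were higher in May. Under library totals 14 of the 15 remained higher in May and 9 of the 11 lower. The share over all 287 was not counted in that scaling, which raises May against September. TMM factors over all 12 libraries were 1.25 and 1.29 in May and 0.848 and 0.912 in September. Of the 15, 9 belong to the imprinted locus and are not independent. Across the 287 miRNAs, the difference between May and September correlated with that between telogen and catagen with a Pearson r of 0.604 and a Spearman rho of 0.637, which is a description over miRNAs that are not independent. Of the arm ratios, 31 of the 33 called precursors were shifted in May over September in the same direction, against 63 of all 77 (81.8%). For miR-30e the difference was 2.98, for miR-195 2.05 and for miR-27a -1.84, and miR-145 and miR-409 were the exceptions.

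**Figure D5:**
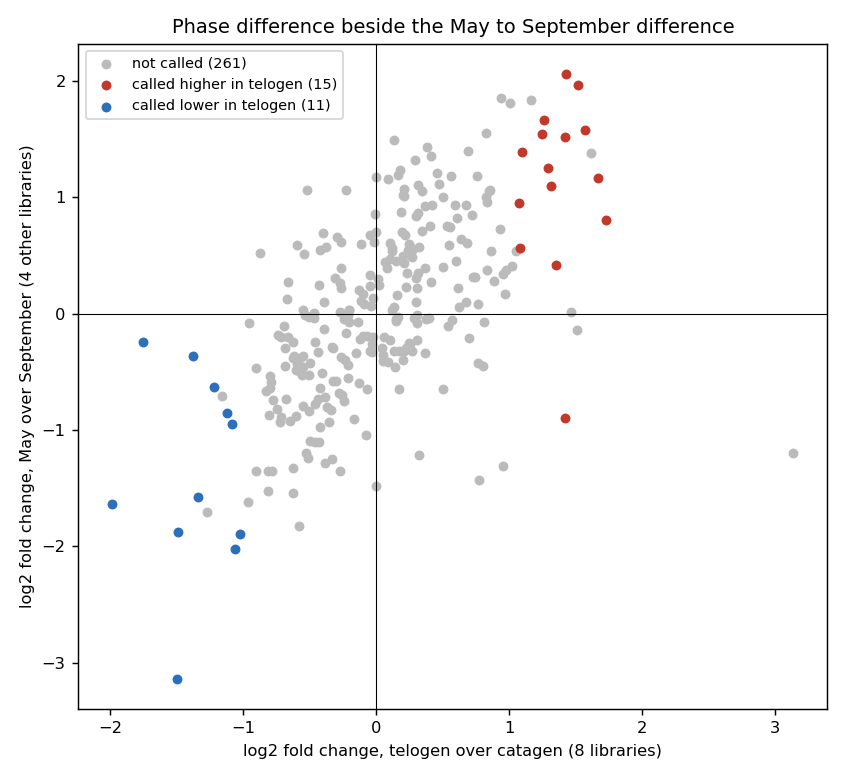
Log2 fold change of telogen over catagen in the 8 libraries (horizontal) and of May over September in 4 other libraries (vertical) for the 287 tested miRNAs, both with TMM. Of the 15 miRNAs called higher in telogen (red) 14 lie above 0 on the vertical axis, and all 11 called lower (blue) lie below 0.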

How the data were processed

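Small RNA of SHFs was sequenced on the Illumina HiSeq. The authors trimmed adapters, placed the reads on the CHIR_2.0 build, predicted further miRNAs by miREvo together with mirDeep2, obtained abundances by a pipeline around Bowtie 0.12.9, and deposited raw counts and TPM values for each library. The deposited TPM equals the count divided by the library total, rescaled to TPM within 0.005, so it carries no composition correction. Here, edgeR 4.0.16 (TMM, glmQLFit and glmQLFTest, run under R 4.3.3) was fitted to the counts of the 4 telogen and 4 catagen libraries. A miRNA needed more than 5 CPM in at least 2 of these libraries. Calls required a Benjamini-Hochberg FDR under 0.05 and a 2-fold change, and standard errors are the log2 fold change over the square root of F. Month and sex contrasts used month and phase by sex fits. Arm ratios were tested with limma 3.58.1. May and September were fitted apart. DESeq2 1.42.0, other scalings, filters and designs, and leaving out libraries were alternatives. Tests were checked on simulated data. The members and lists were chosen with earlier results of these data known. miRNAs were named by size of change among calls without overlap, by abundance, by lists and as called under 1 scaling, between arms, months or sexes. miR-141, miR-1, miR-192-5p, miR-194, miR-215-5p and further list members given as examples were chosen after their values were seen. RefSeq neighbours come from another assembly (ARS1.2), so no coordinates are given. Sequences were not analysed here.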

Additional observations from a re-analysis of the deposited data

Results flagged for a closer look

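The phase difference of 4 miRNAs differed between male and female libraries by the interaction test. On the log2 scale, male minus female, it was 5.13 for miR-122, 2.62 for novel_120, 1.74 for miR-450-5p and -1.79 for miR-150. miR-122 passed the filter on low counts through the male telogen libraries alone.

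In 7 of 126 groups of 4 libraries examined (5.6%), 1 library stood far from the other 3 by Dixon's test, where chance alone flags about 1 in 20. In telogen the male February library stood high for miR-223-3p (87.9 TMM CPM), and the male March library stood low for miR-143-3p (54069). The female March library stood high for miR-96 (10.2), miR-497-5p (29.4), miR-106b-5p (398) and let-7i-3p (13.2). In catagen the female December library stood high for miR-190a-5p (12.9). The call of miR-223-3p was kept without each library in turn. The cause of these values was not tested.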

How the results depend on the processing

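Of the 26 phase calls, 10 were kept in every alternative that gave a value and 14 without each library in turn. Over 90 named miRNAs and 22 alternatives, 1735 log2 fold changes kept their direction and side of the threshold, 75 lost a call, 126 gained 1 and 6 changed sign. The sign changes were miR-381 under library totals (0.071), miR-127-3p and miR-379-5p without the male March library (-0.27 and -0.26, against up to 0.41 and 0.44 with other libraries left out) and without both male telogen libraries (-0.50 and -0.59), and miR-122 without both male telogen libraries (-1.07).

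With library totals 44 miRNAs were called (39 higher, 5 lower) and the median of the log2 fold changes was 0.32, while it was 0.084 with upper quartile scaling. DESeq2 called 24 higher and 34 in all (70.6% higher, and 71.4% with upper quartile scaling, against 57.7% with TMM). A filter of over 50 CPM in at least 4 libraries left 150 tested miRNAs and gave 7 calls (5 higher, 2 lower). No fold minimum gave 93 (40 and 53). Added after seeing the data, the fit without both male telogen libraries called 41 (22 lower) and that without both female telogen libraries 40 (33 higher, 7 lower), both from 6 libraries. Leaving out each library gave 19 to 31 calls, 9 to 21 higher, 6 to 14 lower and medians of -0.00288 to 0.055. With month as a random block (consensus correlation -0.310 within months) 32 miRNAs were called, the same number as with counts summed by month, and both kept all 26.

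The interaction count was 11 with library totals and 13 with DESeq2, and ranged from 1 to 22 when each library was left out (1 without the male November or the female March library, 22 without the male February one). The call counts between months of a phase were 0 in all alternatives run except November and December with sex within phase as a term (2, added after seeing the data). With at least 100 mean counts in both arms, 33 precursors were tested for the arm ratio and 18 were called. Of these 18, 15 were among the 33 calls of the main test. With 10 rather than 1 added to each arm, 36 of 77 were called, 28 of them among the main calls. Leaving out each library gave 21 to 41. The labels give no replicate numbers, but sex is crossed with month and phase, and with sex as a term 30 miRNAs were called between phases, all 26 included, and 34 arm ratios, all 33 included. The causes of these changes were not tested, other than that the stricter filter tests fewer miRNAs. At 3455772 or more counts, depth limits miRNAs of a few CPM, such as novel_586 and miR-92a-5p.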

Other observations

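Among clusters not described so far, the miR-17-92 cluster and its paralogs, which promote proliferation, had 17 of 20 listed miRNAs tested. With TMM 0 were called higher and 1 lower (miR-92a-5p), where 5.23% and 3.83% of all were. Under library totals 3 were called higher (miR-106b-5p, miR-20b and miR-363-3p), where 13.6% of all were. miR-20b and miR-363-3p had passed the filter only through telogen and miR-92a-5p only through catagen. Of the cluster members that are neighbours in RefSeq, miR-18a-5p had a log2 fold change of 0.61 (FDR = 0.0491) and miR-92a-3p of -0.69 (FDR = 0.0365), the latter not past the FDR under library totals (-0.36, FDR = 0.277). The pair let-7e-5p (-0.67, FDR = 0.00913) and miR-99b-5p (-0.63, FDR = 0.0156), neighbours in RefSeq, fell together with TMM, by less than 2-fold, and neither passed the FDR under library totals (0.102 and 0.184). Of the miR-125, miR-99 and miR-100 family 9 of 9 were tested, with 0 called with TMM. Of these, 1 passed the FDR as higher and 4 as lower, where 13.9% and 18.5% of all tested miRNAs did so. miR-99a-3p was the higher one (0.76, FDR = 0.00699, called under library totals) and miR-125b-3p had the smallest FDR of the lower ones (-0.90, FDR = 0.0098), whereas miR-125b-5p was at -0.12 (FDR = 0.446). Under library totals 2 passed as higher and 0 as lower, where 27.9% and 4.9% of all did, with miR-125b-3p at -0.56 (FDR = 0.0811). Of the 3 miRNAs of the miR-183 cluster, known from sensory epithelia, 2 passed the FDR as lower with TMM, where 18.5% of all did so. These were miR-182 (-0.63, FDR = 0.0235) and miR-183 (-0.42, FDR = 0.0182), and neither passed under library totals (-0.32 and -0.11). miR-96 went the other way, with 0.81 (FDR = 0.0686), and was called higher under library totals (1.12, FDR = 0.0235). It had passed the filter only through telogen. Of the 5 miRNAs within HOX clusters, miR-10a-5p was lower (-0.69, FDR = 0.0124) with -0.36 under library totals (FDR = 0.101). The other 4 did not pass, where 18.5% of all passed as lower with TMM. Of the 15 tested let-7 miRNAs 5 passed the FDR as lower and 0 as higher with TMM, where 18.5% and 13.9% of all did so, with 0 called in edgeR. In this scaling 13 had a negative log2 fold change, where 49.8% of all were positive. Under library totals 0 passed as lower and 2 as higher, where 4.9% and 27.9% of all did. There 9 were positive, where 67.6% of all were, and 1 was called higher (let-7i-3p), where 13.6% of all were. Of 12 tested miRNAs with known roles in the hair cycle, 3 passed the FDR as higher (miR-214-3p, miR-214-5p and miR-29a-3p) and 1 as lower (miR-125b-3p) with TMM, where 13.9% and 18.5% of all did so. Under library totals 5 passed as higher and 0 as lower, where 27.9% and 4.9% of all did. miR-24-3p was among those 5 (0.47, FDR = 0.00822) but did not pass with TMM (0.17, FDR = 0.18).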
